A study of Mus musculus with 28 samples.

Results

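Acetylation of histone H3 at lysine 27 (H3K27ac) was compared between mouse lung adenocarcinoma cells carrying a hairpin against Fabp7 and the same resistant cells carrying a control hairpin. The comparison rests on 6 of the 28 samples of the series, chosen by their labels: 3 libraries of Res_shFabp7 and 3 of Res_Ctrl, each with its own list of H3K27ac peaks. Res_shFabp7 is the line labelled Resistant with the genotype shFabp7 knockdown, and Res_Ctrl is that line with the genotype Control. Resistant refers to PD-1, the immune checkpoint receptor, and the series also holds a line labelled Sensitive. Both groups were grown in RPMI-1640 medium with serum and antibiotics, and no further treatment is labelled. The number and sequence of the hairpins, their vector, and whether each line is a clone or a pool are not given in the sources used here. The 3 libraries of a group are labelled biological replicates, and nothing says whether they came from separate infections, so the p-values measure the spread between these libraries.

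H3K27ac is deposited by acetyltransferases such as p300 and CBP and marks active promoters and active enhancers, so it shows which regulatory regions are in use. FABP7 is a small carrier protein for fatty acids, first known from the developing brain, and it is silent in most normal adult lung cells. Ferroptosis is a form of cell death driven by iron-dependent peroxidation of membrane lipids, which enzymes such as GPX4 hold back and which the supply and storage of polyunsaturated fatty acids can modify.

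No H3K27ac peak lay within 1 kb of either end of Fabp7 in any of the 6 libraries, so the mark gave no check of the knockdown. The nearest region, chr10:57794159-57795801, began 5709 bases beyond the gene. It was called in Res_shFabp7 replicates 2 and 3, with 74 and 61 tags, and in no Res_Ctrl library. Peaks were sparse at the ends of the fatty acid binding protein genes, and none of these genes had a tested region. Fabp5, the epidermal family member, had a peak in 2 of 3 Res_shFabp7 libraries (50 and 78 tags) and in 1 of 3 Res_Ctrl libraries (66 tags). Fabp2, the intestinal member, had one in a single Res_shFabp7 library, with 82 tags.

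Of a short panel of markers, the epithelial genes Cdh1, Krt7, Krt8, Krt18 and Krt19 had peaks in all 6 libraries, as did Sftpc and Foxa2 of lung. Epcam and the lung lineage factor Nkx2-1 had none. Pdgfra, Pdgfrb and Dcn of fibroblasts, Pecam1, Cdh5 and Kdr of endothelium, Ptprc and Cd3e of immune cells, and Sox10 and Gfap of glia also had none in any library. Spi1, a myeloid factor, had small peaks in all 3 Res_shFabp7 libraries (61, 72 and 104 tags) and in 2 of 3 Res_Ctrl libraries (55 and 50 tags). On the longer gene lists used below, 16 of 32 epithelial and 21 of 31 lung genes had any peak. So did 20 of 34 mesenchymal, 5 of 15 neural and glial, 4 of 20 immune cell, and 1 of 18 fibroblast and endothelial genes.

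The depth of the libraries was unequal, and this shapes every comparison here. Tags inside peaks came to 5.10, 7.17 and 10.5 M in Res_shFabp7, against 4.65, 3.70 and 4.65 M in Res_Ctrl (M, 1000000 tags). The median called peak was 2295, 2373 and 2483 bases long in Res_shFabp7, against 2296, 2056 and 2141 bases in Res_Ctrl. The groups did not overlap in tags and overlapped by 1 base in median length, and with 3 libraries against 3 an exact permutation test cannot give a two-sided p under 0.1. Overlapping peaks of the 6 lists merged into 29992 regions. Of these, 16235 (54.1%) held a peak in all 6 libraries and were tested by edgeR's quasi-likelihood test on their tags after TMM scaling. Levels below are tags per 1000000 scaled tags of the tested regions (CPM). A region within 1 kb of an annotated start or end of a protein-coding gene is at a gene end, and any other is distal.

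Falls in H3K27ac outnumbered rises in the knockdown. Relative to Res_Ctrl, 411 of the 16235 tested regions were lower in Res_shFabp7 (2.53%) and 215 were higher (1.32%), at an adjusted p under 0.05, which makes 626 called in all (3.86%). Both directions included distal regions and regions at gene ends. Of 7865 distal regions, 303 were lower (3.85%) and 151 higher (1.92%), while of 8370 regions at gene ends 108 were lower (1.29%) and 64 higher (0.765%). Lower regions changed by a median of -0.65 on the log2 scale, with a range of -2.29 to -0.27. Higher regions changed by a median of 0.79, with a range of 0.33 to 1.68. Fitting the replicate number as a block raised the counts to 939 lower and 502 higher. Leaving out 1 library gave between 120 and 561 lower and between 45 and 281 higher. The fewest higher calls came without Res_shFabp7 replicate 2 or 3 (121 lower and 48 higher, 120 lower and 45 higher), and the other low values without Res_shFabp7 replicate 1 (204 lower), Res_Ctrl replicate 2 (123 lower and 99 higher) or Res_Ctrl replicate 3 (169 lower).

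A longer called interval collects more tags, and the interval was longer in Res_shFabp7 in most regions. The median called length ratio of Res_shFabp7 over Res_Ctrl was 0.24 on the log2 scale over all tested regions. All 215 higher regions were called longer in Res_shFabp7, with a median length ratio of 0.99, and 144 of them were also higher in tags per called base. Of the 411 lower regions, 95 were called longer in Res_shFabp7, the median length ratio was -0.09, and 409 were also lower in tags per called base. Of all 16235 tested regions, 15212 were called longer in Res_shFabp7 and 11238 kept the sign of their change per called base. The share that kept its sign among the rises was thus no larger than among all regions. Across the 16235 regions the change in tags and the length ratio had a Pearson correlation of 0.846, which describes 2 values taken from the same peak calls. How far the deeper Res_shFabp7 libraries set the called lengths was not tested.

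**Figure D1:**
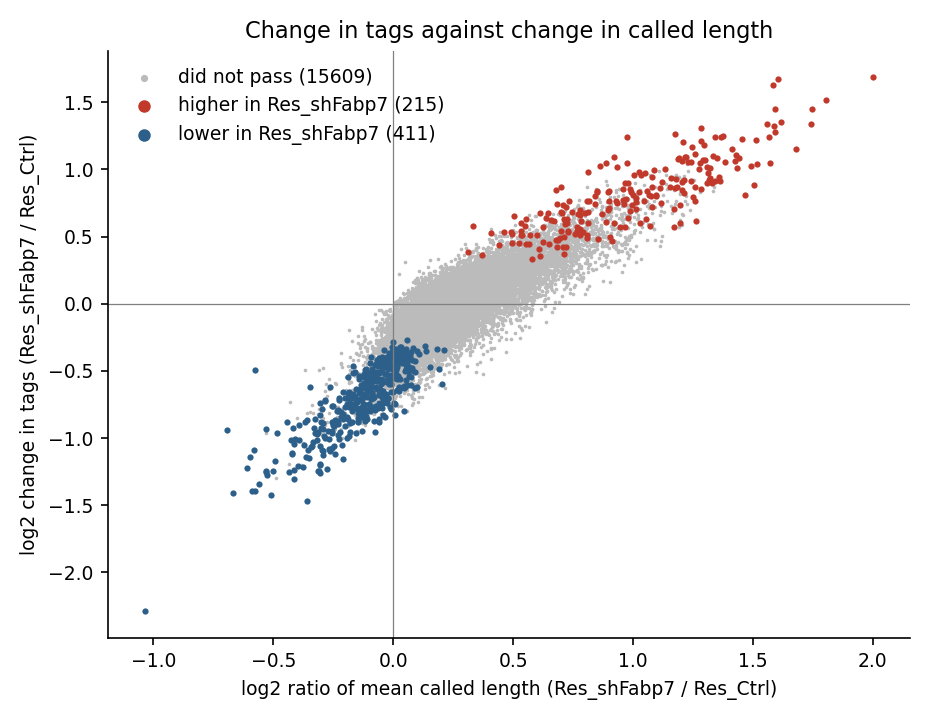
Change in H3K27ac tags (log2, Res_shFabp7 over Res_Ctrl, vertical axis) against the ratio of called lengths (log2, horizontal axis), 1 point for each of the 16235 regions tested, with called regions coloured. The 215 higher regions all lie to the right of 0, while the 411 lower regions lie on both sides, around a median length ratio of -0.09.

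The named regions therefore had to pass the test, separate all 3 libraries of 1 group from all 3 of the other, and change in the same direction by at least 0.5 (log2) per called base. All 411 lower and all 215 higher regions separated the groups, and 4093 of the 16235 tested regions did in all. Where groups are said below not to overlap, this adds nothing to the call. At gene ends 8 falls met the naming rule and no rise did, and among distal regions 37 falls and 2 rises did. The 8 falls lay at Ddah1, Notch1, Mt2, Ptgr1, Wnt7b, Heg1, Plpbp and Kif21b. No strand was available for Wnt7b, Plpbp and Kif21b, so which end of these genes changed is not given. The same holds for Eya1, Ska1, Egr1 and Vcam1 below. All 8 falls also passed with the replicate block and after each chromosome's median change had been taken out.

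The 250 bases before the annotated start are printed for the 5 genes whose fallen region covers a single start, since these promoters carried less of the mark in the knockdown. They come from the RefSeq promoter table of GRCm38.p6, each on the gene's own strand. Capitals mark GC boxes (GGGCGG, or CCGCCC on the other strand, some of them overlapping), the binding letters of SP-family factors. In Mt2 they mark instead TGCNCNC on either strand, a looser form of the metal response core bound by the zinc-sensing factor MTF1. Not every match to it has the letters of that core. That choice of motif was made after the values were seen.
Ddah1 (chr3:145758442-145758691, plus strand): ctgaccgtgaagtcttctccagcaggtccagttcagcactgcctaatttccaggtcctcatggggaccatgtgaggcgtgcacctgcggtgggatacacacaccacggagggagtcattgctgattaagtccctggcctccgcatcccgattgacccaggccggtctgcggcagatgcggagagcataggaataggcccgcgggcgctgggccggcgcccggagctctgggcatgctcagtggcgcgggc
Notch1 (chr2:26503823-26504072, minus strand): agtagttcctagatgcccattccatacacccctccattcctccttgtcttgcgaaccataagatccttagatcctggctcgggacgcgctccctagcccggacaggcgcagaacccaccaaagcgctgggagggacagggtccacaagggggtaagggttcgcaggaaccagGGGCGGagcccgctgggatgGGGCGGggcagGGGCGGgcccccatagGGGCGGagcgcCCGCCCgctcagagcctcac
Mt2 (chr8:94172368-94172617, plus strand): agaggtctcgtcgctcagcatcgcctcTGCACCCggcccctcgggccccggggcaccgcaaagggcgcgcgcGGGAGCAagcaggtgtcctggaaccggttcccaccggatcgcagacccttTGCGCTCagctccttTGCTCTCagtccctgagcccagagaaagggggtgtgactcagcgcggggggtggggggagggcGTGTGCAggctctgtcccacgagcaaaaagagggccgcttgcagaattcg
Ptgr1 (chr4:58987079-58987328, minus strand): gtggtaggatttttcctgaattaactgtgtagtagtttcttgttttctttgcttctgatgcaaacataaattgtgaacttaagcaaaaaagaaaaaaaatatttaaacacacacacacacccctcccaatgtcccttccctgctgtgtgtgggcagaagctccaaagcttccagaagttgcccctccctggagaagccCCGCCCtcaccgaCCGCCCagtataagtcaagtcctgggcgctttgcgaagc
Heg1 (chr16:33684216-33684465, plus strand): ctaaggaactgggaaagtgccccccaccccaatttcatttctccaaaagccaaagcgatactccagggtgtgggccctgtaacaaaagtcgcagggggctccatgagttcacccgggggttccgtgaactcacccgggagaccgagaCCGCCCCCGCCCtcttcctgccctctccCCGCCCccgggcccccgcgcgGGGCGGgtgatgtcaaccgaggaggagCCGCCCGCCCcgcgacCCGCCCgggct
The Mt2 stretch held 5 matches to the loose metal response core. GC boxes numbered 7 in Heg1, 5 in Notch1 and 2 in Ptgr1, and Ddah1 held none.

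Ddah1 encodes the hydrolase that breaks down asymmetric methylarginines, the natural inhibitors of nitric oxide synthases. Its start, chr3:145758092-145759725, had 15.2, 10.0 and 9.1 CPM in Res_shFabp7, against 30.03, 22.2 and 27.6 CPM in Res_Ctrl. Every knockdown library lay below every control library. The region fell by 1.24 ± 0.24 on the log2 scale (SE, adjusted p = 0.0179, edgeR quasi-likelihood), and by 0.71 per called base. A further region 16685 bases from that end of Ddah1, chr3:145775377-145777803, was called in all 3 Res_Ctrl libraries, with 147, 108 and 125 tags, and in no Res_shFabp7 library. It had a peak in 1 of 3 Resistant and 1 of 3 Sensitive lists.

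Mt2 encodes metallothionein 2, a cysteine-rich protein that binds zinc, copper and cadmium. The region over its start, chr8:94171779-94174068, had 12.9, 15.3 and 15.4 CPM in Res_shFabp7, against 39.6, 30.5 and 30.9 CPM in Res_Ctrl. The 3 knockdown values lay close together and well under the lowest control value. The fall was -1.20 ± 0.19 (log2, SE, adjusted p = 0.00841), and -0.65 per called base. Mt1, the neighbouring metallothionein gene, had 61.7 ± 7.52 CPM in Res_shFabp7 and 71.4 ± 6.44 CPM in Res_Ctrl (SD, n = 3 each) at chr8:94177824-94181162, and this difference did not pass the test (-0.22, adjusted p = 0.362, edgeR).

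Ptgr1 encodes a reductase that inactivates leukotriene B4 and reduces reactive alkenals such as 4-hydroxynonenal, a product of lipid peroxidation. Its start, chr4:58986013-58987587, had 10.6, 10.1 and 10.7 CPM in Res_shFabp7, against 23.7, 23.3 and 23.1 CPM in Res_Ctrl. Replicates of each group differed by little and the groups were far apart. The fall was -1.15 ± 0.18 (log2, SE, adjusted p = 0.00846), and -0.69 per called base.

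Notch1, the receptor for Delta and Jagged ligands, and Wnt7b, a secreted Wnt ligand, fell among the genes of cell-to-cell signalling. Notch1 at chr2:26502207-26504210 had 14.4, 10.0 and 9.7 CPM in Res_shFabp7, against 28.2, 19.1 and 30.2 CPM in Res_Ctrl, a change of -1.21 ± 0.24 (log2, SE, adjusted p = 0.0223). Wnt7b at chr15:85533079-85535868 had 18.2, 15.1 and 16.9 CPM in Res_shFabp7, against 36.6, 32.4 and 36.4 CPM in Res_Ctrl, a change of -1.07 ± 0.18 (log2, SE, adjusted p = 0.00901). For both genes the groups did not overlap, and per called base the changes were -0.57 and -0.58. With peaks within 500 bases merged, Wnt7b's change was smaller, at -0.48 (adjusted p = 0.0257). Heg1, a transmembrane receptor that anchors the KRIT1 adaptor at endothelial junctions, had 11.5, 10.95 and 10.8 CPM in Res_shFabp7 at chr16:33683958-33685714, against 26.4, 16.8 and 25.5 CPM in Res_Ctrl. Its change was -1.05 ± 0.22 (log2, SE, adjusted p = 0.0259), or -0.59 per called base, and the lowest control library stood apart from the other two.

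Plpbp, which encodes a pyridoxal phosphate binding protein, was among the 8 as well. Its region, chr8:27054487-27061543, had 85.8, 85.4 and 99.2 CPM in Res_shFabp7, against 154.0, 171.0 and 172.1 CPM in Res_Ctrl. It fell by 0.87 ± 0.09 on the log2 scale (SE, adjusted p = 0.00144, edgeR), with no overlap between groups. Kif21b, a kinesin motor that moves along microtubules, had 29.8, 37.8 and 31.3 CPM in Res_shFabp7 at chr1:136176182-136179741, against 58.2, 62.0 and 59.0 CPM in Res_Ctrl. This gave -0.85 ± 0.13 (log2, SE, adjusted p = 0.0079). Per called base the changes were -0.52 for Plpbp and -0.53 for Kif21b.

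Mt2, Ptgr1, Plpbp and Kif21b passed with each of the 6 libraries left out in turn, and the others each depended on a library. By the same edgeR test, Ddah1 missed the threshold without Res_shFabp7 replicate 2 (adjusted p = 0.0889) or 3 (adjusted p = 0.0942). Wnt7b missed it without Res_shFabp7 replicate 2 (adjusted p = 0.0593). Notch1 missed it without Res_shFabp7 replicate 2 or 3 or Res_Ctrl replicate 3 (adjusted p of 0.101, 0.105 and 0.0702). Heg1 missed it without any 1 of the Res_shFabp7 libraries or Res_Ctrl replicate 3 (adjusted p of 0.0568 to 0.105). The log2 change of these 4 genes stayed between -1.15 and -0.96 in the fits where they missed it.

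**Figure D2:**
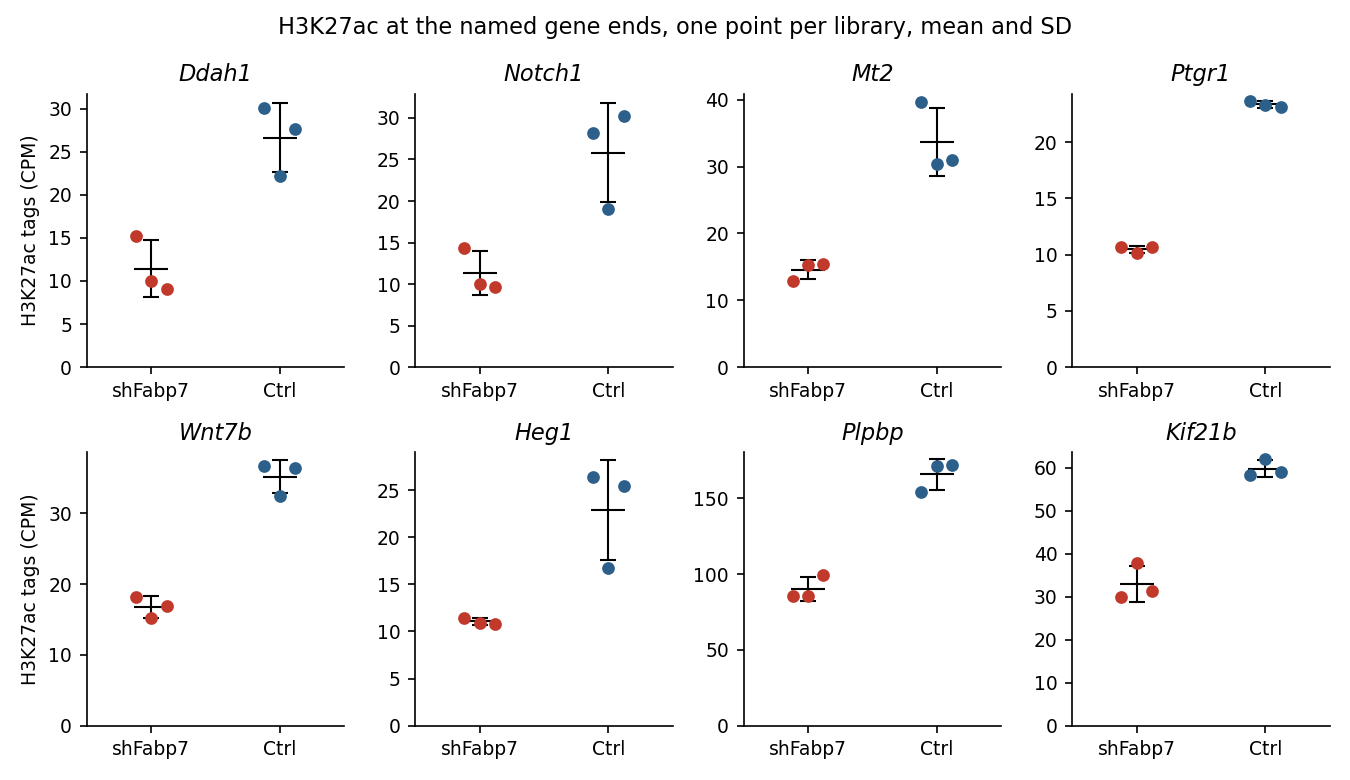
H3K27ac level (CPM, vertical axis) of each library at the 8 gene-end falls, Res_shFabp7 left of Res_Ctrl, with bars for the mean and SD. As the naming rule required, the 3 Res_shFabp7 libraries lie below the 3 Res_Ctrl libraries at each gene. At Ptgr1 the highest knockdown value is 10.7 and the lowest control value 23.1.

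A second active mark was measured in libraries of its own. Acetylation of H3 at lysine 9 (H3K9ac) was profiled in the same 2 lines, and 11152 regions had a peak in all 6 of its lists, of which 578 were lower (5.18%) and 317 higher (2.84%). Of the 6 named falls with a tested H3K9ac region, 5 were lower in that mark too. Its log2 change was -1.26 ± 0.12 at Ddah1, -0.98 ± 0.08 at Plpbp, -0.89 ± 0.16 at Heg1, -0.84 ± 0.14 at Mt2 and -0.53 ± 0.11 at Notch1 (SE, edgeR adjusted p of 0.000168, 5.28e-05, 0.00487, 0.00258 and 0.0138). Ptgr1 did not pass in H3K9ac (-0.31 ± 0.16, adjusted p = 0.242), and Wnt7b and Kif21b had no tested region of that mark. Of the 411 H3K27ac falls, 203 overlapped a tested H3K9ac region, 126 of those were lower in H3K9ac (62.1%) and none was higher. Of the 215 rises, 67 overlapped one, 25 of those were higher in H3K9ac (37.3%) and none was lower. Beside the 10088 uncalled H3K27ac regions with an H3K9ac partner, 3.87% were lower in H3K9ac and 2.71% higher.

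The parent lines placed these genes at various levels, from libraries that entered neither side of the comparison. Scaled over the regions called in all 12 H3K27ac lists, Ddah1 had 13.5 ± 3.74 CPM in Res_shFabp7 and 31.6 ± 4.46 CPM in Res_Ctrl, with 40.3 ± 2.87 CPM in the unmodified Resistant line and 38.8 ± 6.38 CPM in the Sensitive line (SD, n = 3 each). The naming rule had already set Res_shFabp7 below Res_Ctrl in these same libraries, so a low rank of Res_shFabp7 is partly fixed in advance. Of the 6 named genes in all 12 lists, Res_shFabp7 had the lowest mean of the 4 groups at 5. Plpbp was the exception, with 107 ± 10.2 CPM in Res_shFabp7 and 197 ± 14.3 CPM in Res_Ctrl, against 125 ± 37.9 CPM in Resistant and 76.3 ± 19.5 CPM in Sensitive cells. Wnt7b at 20.4 ± 0.347 CPM in the Resistant line lay near its knockdown level of 19.8 ± 1.66 CPM, not near the control hairpin's 41.8 ± 2.51 CPM. Of the 256 falls present in all 12 lists, 152 were higher in Resistant than in Sensitive cells (59.4%), as were 41 of 106 rises (38.7%) and 49.3% of all 11834 such regions. These shares carry no test.

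The 4 largest distal falls all passed with every library left out in turn. The largest, chr4:151471247-151475251, lay 380 kb from its nearest gene end, that of Gm13090. It had 10.9, 16.6 and 15.2 CPM in Res_shFabp7, against 59.6, 78.5 and 72.8 CPM in Res_Ctrl, a change of -2.29 ± 0.18 (log2, SE, edgeR adjusted p = 0.000353). No other tested region fell as far, and no value of either group came near the other. It was called over 1686 bases in Res_shFabp7 and 3457 bases in Res_Ctrl, and per called base it changed by -1.0. A region 181621 bases from Zfp703, a zinc finger regulator of transcription, had 15.4, 17.1 and 14.9 CPM in Res_shFabp7 at chr8:26793065-26795715, against 40.7, 52.1 and 38.6 CPM in Res_Ctrl (-1.47 ± 0.18, adjusted p = 0.00334). One 62829 bases from Csmd1, a complement-regulating membrane protein, had 38.8, 39.3 and 42.8 CPM in Res_shFabp7 at chr8:17598214-17603728, against 107.4, 116.1 and 102.6 CPM in Res_Ctrl (-1.43 ± 0.11, adjusted p = 0.000319). The one 53368 bases from Sp3, an SP-family factor that binds GC boxes, had 16.1, 10.6 and 20.7 CPM in Res_shFabp7 at chr2:72880097-72883062, against 41.9, 41.8 and 42.1 CPM in Res_Ctrl (-1.39 ± 0.23, adjusted p = 0.00876). These 3 were called shorter in Res_shFabp7 as well (1873, 3213 and 1794 bases, against 2405, 4577 and 2699 bases in Res_Ctrl), and per called base they changed by -0.85, -0.65 and -0.55.

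Falls also gathered at single loci, which were picked out after their values had been seen as places with at least 4 called regions less than 100 kb apart. At Dhrs3, which encodes a short-chain reductase that turns retinaldehyde back into retinol, 5 of 6 tested regions between chr4:144890320 and 145006557 fell and the other had the same sign. The region at the gene's start, chr4:144890320-144895786, had 68.7, 64.7 and 56.5 CPM in Res_shFabp7, against 110.1, 126.1 and 103.3 CPM in Res_Ctrl (-0.84 ± 0.11, log2, SE, edgeR adjusted p = 0.00479). A distal one further on, chr4:144995586-145006557, had 103.3, 121.9 and 118.7 CPM in Res_shFabp7, against 213.6, 225.4 and 215.5 CPM in Res_Ctrl (-0.92 ± 0.09, adjusted p = 0.000498). Every knockdown library lay below every control library at both, and per called base they changed by -0.44 and -0.23. Of the 3 fallen regions with a tested H3K9ac partner, the one at the gene's start was lower in that mark (-0.73, adjusted p = 0.000566) and the others did not pass (-0.42 and -0.48, adjusted p of 0.197 and 0.0981). Past the gene, chr4:145032631-145035993 was called with 173, 197 and 174 tags in Res_Ctrl and in no Res_shFabp7 library, nor in any list of the Resistant or Sensitive lines.

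At Csf1, the macrophage growth factor, and the neighbouring Eps8l3, an actin adaptor, 5 of 8 tested regions between chr3:107731509 and 107889002 fell, by log2 changes of -0.86 to -0.50, and 7 of 8 lay below 0. The region at Csf1's far end, chr3:107731509-107745917, had 206.2, 208.9 and 194.6 CPM in Res_shFabp7, against 292.6, 299.4 and 271.4 CPM in Res_Ctrl (-0.50 ± 0.07, edgeR adjusted p = 0.00621). Its change per called base was -0.29. Around Atp2c2, Wfdc1, Meak7 and Cotl1 (chr8:119685241 to 119841717), which include a Golgi calcium and manganese pump and an actin-binding protein, 5 of 8 regions fell and all 8 lay below 0. Of the 5 regions there with a tested H3K9ac partner, 4 were lower in that mark. Near Sorbs2, an adaptor of the actin cytoskeleton, 4 of 6 regions fell (-1.06 to -0.34). At Hbegf, a ligand of the EGF receptor, and Cystm1 the directions were mixed, with 2 distal regions higher (0.73 and 0.63) and 2 regions lower (-0.58 and -0.44) of 7 tested. The loci with falls alone lay on chromosomes 3, 4 and 8. Over these whole chromosomes 5.02%, 5.83% and 9.44% of tested regions were lower, with median changes of -0.09, -0.16 and -0.21. With chromosome medians taken out, Dhrs3's start and Csf1's far end passed with smaller changes (-0.69 and -0.42, edgeR adjusted p of 0.0135 and 0.0187).

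Only 2 distal rises met the naming rule, and neither held with every library left out. One inside Flt1, which encodes VEGF receptor 1, had 35.3, 44.9 and 38.6 CPM in Res_shFabp7 at chr5:147608664-147611712, against 13.9, 27.04 and 10.0 CPM in Res_Ctrl (1.24 ± 0.29, edgeR adjusted p = 0.0393). It missed the threshold in 5 of 6 such fits, all but that without Res_Ctrl replicate 2, with adjusted p of 0.0699 to 0.142. The other, 13854 bases from Bms1, a ribosome assembly GTPase, had 79.9, 97.3 and 99.9 CPM in Res_shFabp7 at chr6:118364521-118369527, against 56.0, 59.8 and 70.2 CPM in Res_Ctrl (0.58 ± 0.12, adjusted p = 0.0297). It missed the threshold without Res_shFabp7 replicate 2 or 3 or Res_Ctrl replicate 1 or 2 (adjusted p of 0.111, 0.124, 0.0522 and 0.0975). With each chromosome's median taken out both missed it as well (adjusted p of 0.0652 and 0.102).

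The largest gene-end rises in tags, named after their values were seen, came with much longer peaks. Efnb1, which encodes the ligand ephrin-B1, had 52.6, 61.7 and 58.4 CPM in Res_shFabp7 at chrX:99134880-99140857, against 15.0, 22.5 and 25.9 CPM in Res_Ctrl (1.45 ± 0.19, edgeR adjusted p = 0.00393). Its called length averaged 5356 bases in Res_shFabp7 and 1597 bases in Res_Ctrl, and the change per called base was -0.02. Flt1 at its start, chr5:147719544-147726769, had 76.2, 83.8 and 69.1 CPM in Res_shFabp7, against 40.7, 23.9 and 25.5 CPM in Res_Ctrl (1.33 ± 0.18, adjusted p = 0.00488). It too was called longer, over 6274 bases in Res_shFabp7 and 1874 bases in Res_Ctrl, with -0.15 per called base.

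Arhgef5, a guanine nucleotide exchange factor, and Eya1, a transcriptional coactivator and phosphatase, rose in both marks. Arhgef5 at its far end, chr6:43281740-43297399, had 161.5, 184.7 and 214.3 CPM in Res_shFabp7, against 69.6, 97.6 and 105.0 CPM in Res_Ctrl (1.05 ± 0.15, edgeR adjusted p = 0.00514). Eya1 at chr1:14304421-14310784 had 107.5, 90.5 and 96.3 CPM in Res_shFabp7, against 52.8, 30.7 and 57.6 CPM in Res_Ctrl (1.05 ± 0.18, adjusted p = 0.0125). In neither did the groups overlap, and the H3K9ac changes were 1.253 (adjusted p = 0.000206) and 1.17 (adjusted p = 0.0112). Per called base Eya1 was higher by 0.43 and Arhgef5 by 0.04. Scaled over all 12 lists, mean CPM of Eya1 was 116 in Res_shFabp7, 55.9 in Res_Ctrl, 206 in Resistant and 86.8 in Sensitive cells. For Arhgef5 these means were 221, 108, 75.7 and 243 CPM. Ska1, a kinetochore subunit, rose by 1.04 ± 0.14 (adjusted p = 0.00434), with 0.35 per called base. These 3, Efnb1 and Flt1 passed with each library left out.

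In the 2568 regions whose called lengths in the 6 libraries differed by at most a ratio of 5 to 4, a subset chosen after seeing the data, 174 were lower (6.78%) and 89 higher (3.47%). Of the lower ones 112 were also lower among all regions, and of the higher ones none was called there. The subset's own scaling moved its median by 0.13 on the log2 scale, from -0.13 among all regions, which exceeds 0.1, and 18 of the 89 lay above 0 with an unadjusted p under 0.05 among all regions. The subset's higher regions changed by 0.21 to 0.47 and its lower regions by -0.75 to -0.19.

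The changes were spread unevenly over the chromosomes. Regions on chromosome 8 had a median log2 change of -0.21, with 100 of 1059 lower (9.44%) and 2 higher. On chromosome 4 the median was -0.16, with 59 of 1012 lower (5.83%) and 2 higher, and on chromosome 3 it was -0.09, with 51 of 1015 lower (5.02%) and 8 higher. These 3 chromosomes held 210 of the 411 lower regions (51.1%) and 19.0% of the tested regions. Chromosome X had a median of 0.35, with 8 of 141 regions higher (5.67%) and none lower, and chromosome 6 a median of 0.15, with 23 of 746 higher and 7 lower.

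The shifts were not confined to single stretches of a chromosome. On chromosome 8 the 12 windows of 10 Mb with at least 20 tested regions had medians below 0 (-0.32 to -0.15), as did the 1 with fewer (-0.09). On chromosome 4 the 14 such windows did too (-0.28 to -0.04), as did the 2 with fewer (-0.10 and -0.07). On X the single window with at least 20 regions had a median of 0.29, and the other 13 windows, with 2 to 18 regions each, lay above 0. Library by library, chromosome 8 deviated from each region's mean by a median of -0.07, -0.12 and -0.13 in Res_shFabp7, against 0.13, 0.13 and 0.07 in Res_Ctrl. Chromosome X deviated by 0.05, 0.20 and 0.28 in Res_shFabp7, against -0.16, -0.24 and -0.05 in Res_Ctrl. Every library of a group thus lay on the same side on both chromosomes. H3K9ac had medians of -0.15 on chromosome 8, -0.12 on chromosome 4, -0.07 on chromosome 3 and 0.24 on X. Over the 20 chromosomes the medians of the marks had a Pearson correlation of 0.989 and a Spearman correlation of 0.956, and Pearson's was 0.985 without X, as a description of 2 marks measured in the same lines. The input libraries are not used here, and the copy number of these chromosomes in the lines was not tested.

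With each chromosome's median change taken out, 250 regions were lower and 153 higher. The gene-end falls kept their calls, with Mt2, Ptgr1, Plpbp and Ddah1 lying on chromosomes 8, 4, 8 and 3. Of the rises on X, Efnb1 passed (1.1, edgeR adjusted p = 0.0166), while Pin4, a prolyl isomerase, did not (0.71, adjusted p = 0.141 against 1.07 ± 0.23 and 0.0309 before).

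**Figure D3:**
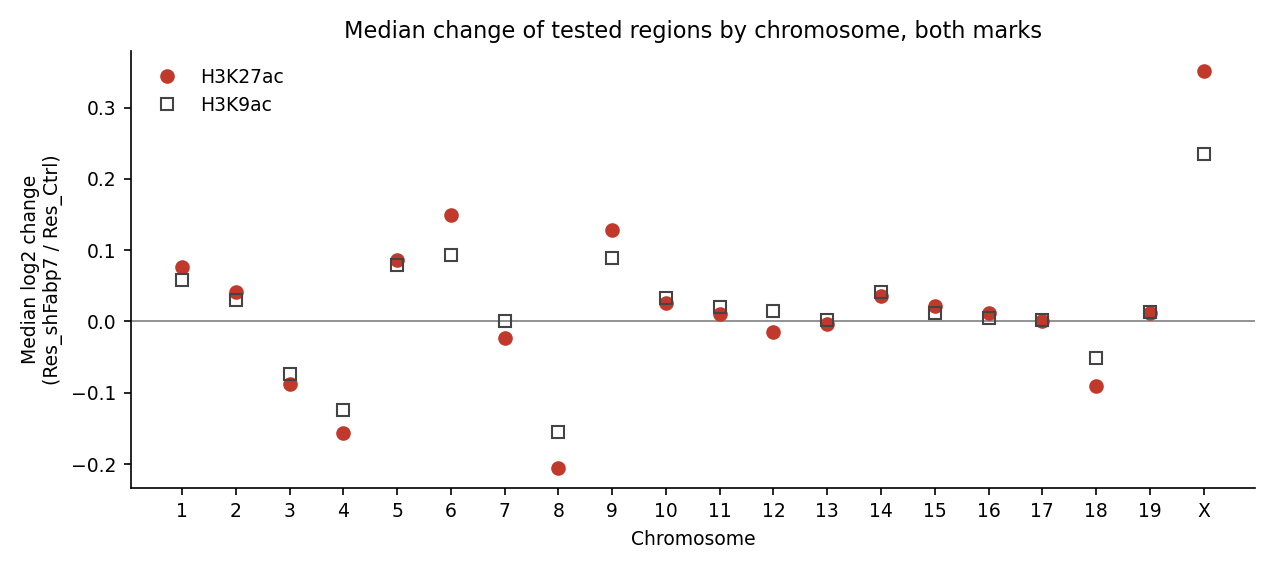
Median log2 change (Res_shFabp7 over Res_Ctrl) of the tested regions on each chromosome for H3K27ac and H3K9ac. Chromosome 8 is the lowest in both marks (-0.21 and -0.15) and X the highest (0.35 and 0.24).

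Groups of genes linked to lipids and ferroptosis were read against all 9610 genes with a tested region, of which 112 were lower (1.17%) and 72 higher (0.749%), 184 in all (1.91%), with a median log2 change of 0.03. Over all lists, 450 distinct genes were tested, 12 were lower (2.67%) and 5 higher (1.11%). The lists were chosen with earlier results of these data known, and their counts are a description.

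Of the genes for fatty acid uptake, activation and PPAR signalling, 13 of 23 were tested, 1 was higher, none was lower and the median log2 change was 0.01. The one was Acsl3, the acyl-CoA synthetase that activates oleate and is known to lower sensitivity to ferroptosis. Its region, chr1:78655573-78661375, shared with Utp14b, had 92.9, 79.9 and 87.0 CPM in Res_shFabp7, against 67.3, 59.5 and 57.9 CPM in Res_Ctrl (0.49 ± 0.11, log2, SE, edgeR adjusted p = 0.0344). The groups did not overlap, but the region was called over 5076 bases in Res_shFabp7 and 2902 bases in Res_Ctrl, and its change per called base was -0.06. It missed the threshold in 5 of the 6 fits that left out a library, all but that without Res_Ctrl replicate 1 (adjusted p up to 0.122). Fatty acid synthesis and desaturation (13 tested, median 0.07), fatty acid oxidation (16 tested, median -0.02) and cholesterol synthesis (19 tested, median 0.05) had no call in either direction.

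Among 15 tested genes of lipid droplets, lipolysis and phospholipids, 1 was lower and the median was 0.06. This was Pnpla2, the adipose triglyceride lipase that starts the breakdown of stored triglyceride. The region at its far end, chr7:141459300-141463066, shared with the calcium channel regulator Cracr2b, had 40.5, 34.9 and 38.2 CPM in Res_shFabp7, against 70.1, 66.0 and 68.1 CPM in Res_Ctrl (-0.85 ± 0.12, edgeR adjusted p = 0.00488). The gap between the groups was several times the spread within them, and H3K9ac fell there too (-0.81, adjusted p = 0.000544). Pnpla2 passed with each library left out. Per called base the change was -0.44. Since the region covers ends of both genes, the mark cannot be given to either alone.

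The suppressors of ferroptosis gave 1 call. Of 30 listed, 25 were tested, Acsl3 alone was higher, none was lower and the median was 0.05. Gpx4, the phospholipid hydroperoxide peroxidase, had 119 ± 5.13 CPM in Res_shFabp7 and 113 ± 7.01 CPM in Res_Ctrl (SD, n = 3 each, 0.07, edgeR adjusted p = 0.728), in a region shared with Sbno2. Aifm2, the ubiquinone reductase FSP1, had 18.5 ± 1.25 CPM in Res_shFabp7 and 25.6 ± 1.86 CPM in Res_Ctrl, which did not pass (-0.47 ± 0.18, adjusted p = 0.174). Of 31 drivers 19 were tested, 1 was higher, none was lower and the median was -0.01. It was Pebp1, the partner of lipoxygenases, whose far end at chr5:117278246-117282720 had 48.4, 48.2 and 61.1 CPM in Res_shFabp7, against 33.4, 35.3 and 37.6 CPM in Res_Ctrl (0.57 ± 0.14, adjusted p = 0.0495). Pebp1 lost its call in each of the 6 fits that left out a library.

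NRF2 targets had 16 of 22 genes tested, 2 lower, none higher and a median of -0.04. Osgin1, an oxidative stress gene whose region is shared with the malonyl-CoA decarboxylase Mlycd, had 432.6, 443.1 and 443.8 CPM in Res_shFabp7 at chr8:119418397-119441881, against 604.5, 683.6 and 637.8 CPM in Res_Ctrl (-0.55 ± 0.07, edgeR adjusted p = 0.00334). Gstm1, a glutathione transferase, had 40.9, 41.4 and 46.7 CPM in Res_shFabp7 at its far end, chr3:108011969-108015107, against 56.9, 71.7 and 63.6 CPM in Res_Ctrl (-0.57 ± 0.13, adjusted p = 0.0345). In both the groups did not overlap. Per called base Osgin1 changed by -0.34 and Gstm1 by -0.21, which did not pass (adjusted p = 0.0912). After chromosome medians were taken out Osgin1 passed with a smaller change (-0.34, adjusted p = 0.0271), and Gstm1 missed the threshold (adjusted p = 0.0781), as it did with any library but Res_Ctrl replicate 1 left out (adjusted p up to 0.149), while Osgin1 passed in all of these. Iron and metallothionein genes had 13 of 19 tested, with Mt2 the single call and a median of 0.00.

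Signalling lists gave single calls, mostly falls. Of 28 tested AP-1 and immediate early genes, 1 was lower, none was higher, the median was -0.15 and 22 lay below 0, a sign that 43.6% of all genes had. Per called base the list's median was 0.01, beside 0.04 over all genes. Egr1, a zinc finger factor induced by growth signals, had 40.9, 34.0 and 35.5 CPM in Res_shFabp7 at chr18:34858876-34862466, against 61.2, 50.1 and 53.3 CPM in Res_Ctrl (-0.58 ± 0.14, edgeR adjusted p = 0.0393), and missed the threshold once chromosome medians were taken out (-0.49, adjusted p = 0.0884). It also missed it with any library but Res_shFabp7 replicate 1 left out (adjusted p up to 0.178), while Ccn1, below, passed in all 6 such fits. With the replicate block Fosb, Jun, Junb, Klf4 and Dusp4 were also lower, of which Junb and Dusp4 were at 0.04 and 0.01 per called base. Of 20 tested YAP and TEAD targets 1 was lower, none was higher and the median was 0.02. This was Ccn1, a matricellular protein, with 131.3, 120.2 and 114.6 CPM in Res_shFabp7 at chr3:145647186-145654623, against 192.0, 192.7 and 183.3 CPM in Res_Ctrl (-0.64 ± 0.08, adjusted p = 0.00393). All knockdown values of Egr1 and Ccn1 lay below all control values, and per called base they changed by -0.27 and -0.30. In H3K9ac Ccn1 fell (-0.61, adjusted p = 5.28e-05) and Egr1 did not pass (-0.26, adjusted p = 0.172).

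Immune-facing genes gave few calls. MHC class I and antigen processing had 11 genes tested and interferon response 17, both with a median of -0.12 and no call. Of 20 tested checkpoint ligands, cytokines and chemokines Csf1, described above, was lower and the median was -0.06. Cd274, which encodes PD-L1, had 21.6 ± 1.64 CPM in Res_shFabp7 and 24.5 ± 2.69 CPM in Res_Ctrl (SD, n = 3 each, -0.19, edgeR adjusted p = 0.627). With the replicate block Pdcd1lg2, Cxcl5, Csf2 and Cx3cl1 were also lower. Among 22 NF-kB genes, Vcam1, an adhesion molecule, was higher (0.57 ± 0.13, adjusted p = 0.0393) over a region called longer in Res_shFabp7 (4968 bases, against 2206 bases in Res_Ctrl) and -0.35 per called base. Tnfaip3, the A20 inhibitor of NF-kB, was lower (-0.36 ± 0.09, adjusted p = 0.0461), as in H3K9ac (-0.30, adjusted p = 0.00163), but per called base it was at -0.07 and did not pass (adjusted p = 0.595). Csf1 passed with each library left out, Tnfaip3 with none (adjusted p up to 0.209), and Vcam1 only without Res_Ctrl replicate 1 (otherwise adjusted p up to 0.169). Scaled over all 12 lists, Tnfaip3 had 187 ± 9.71 CPM in Res_shFabp7 and 242 ± 22.1 CPM in Res_Ctrl. It had 134 ± 37.1 CPM in Resistant and 137 ± 23.5 CPM in Sensitive cells (SD, n = 3 each), both below the knockdown mean.

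Of the hypoxia genes 25 of 30 were tested, Egln3, a prolyl hydroxylase that marks HIF for destruction, was lower (-0.44 ± 0.09, edgeR adjusted p = 0.0261) and the median was -0.11. Per called base Egln3 was at -0.19 and did not pass (adjusted p = 0.133), and the list's median was 0.04. Clock genes had 16 of 24 tested, no call and a median of 0.06, with Per2 at -0.13 (adjusted p = 0.58). The integrated stress and unfolded protein response (25 tested, median -0.01), cell cycle genes (29 tested, median -0.01) and housekeeping genes (25 tested, median 0.08) had no call either. Of 29 writers, erasers and readers of histone acetylation the coactivator Ncoa1 was higher (0.86 ± 0.21, adjusted p = 0.0465), over a region called 2170 bases long in Res_shFabp7 and 961 bases in Res_Ctrl, and -0.04 per called base. Ncoa1 passed only without Res_Ctrl replicate 1 among the fits that left out a library (otherwise adjusted p up to 0.167), and Egln3 missed the threshold without Res_shFabp7 replicate 2 or 3 or Res_Ctrl replicate 2 (adjusted p of 0.131, 0.103 and 0.0975).

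Lineage genes showed isolated calls. Of 18 tested mesenchymal genes Sparc, a collagen-binding matrix protein, was higher, with 56.3, 49.9 and 48.3 CPM in Res_shFabp7, against 28.4, 34.4 and 31.4 CPM in Res_Ctrl (0.71 ± 0.14, edgeR adjusted p = 0.021), and its change per called base was 0.07. Snai1, a repressor of epithelial genes, was lower at its far end (-0.47 ± 0.11, adjusted p = 0.0368), but per called base it was at -0.15 and did not pass (adjusted p = 0.255). The 14 tested epithelial genes (median -0.15), 18 lung genes and 3 immune cell genes had no call, and no fibroblast or endothelial gene was tested. Of 15 neural and glial genes, listed because Fabp7 marks that lineage, 3 were tested and 2 were lower. Nes, an intermediate filament of progenitors, had 131.3, 136.4 and 129.6 CPM in Res_shFabp7, against 211.8, 281.5 and 229.0 CPM in Res_Ctrl (-0.86 ± 0.10, adjusted p = 0.0029). Its region, chr3:87977977-87988237, is shared with Bcan and lies at the far end of both genes. S100b, a calcium-binding protein of glia, shared its region with Dip2a, also at the far end of both genes (-0.64 ± 0.14, adjusted p = 0.0326). Per called base Nes changed by -0.40 and S100b by -0.26. Nes passed with each library left out. Snai1 and S100b passed only without Res_Ctrl replicate 1 (otherwise adjusted p up to 0.126 and 0.113), and Sparc only without Res_Ctrl replicate 1 or 2 (otherwise adjusted p up to 0.0809). Over all 12 lists, mean CPM of Sparc was 63.7 in Res_shFabp7, 37.4 in Res_Ctrl, 196 in Resistant and 84.4 in Sensitive cells. For Snai1 these means were 60.7, 85.0, 69.5 and 88.7 CPM.

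**Figure D4:**
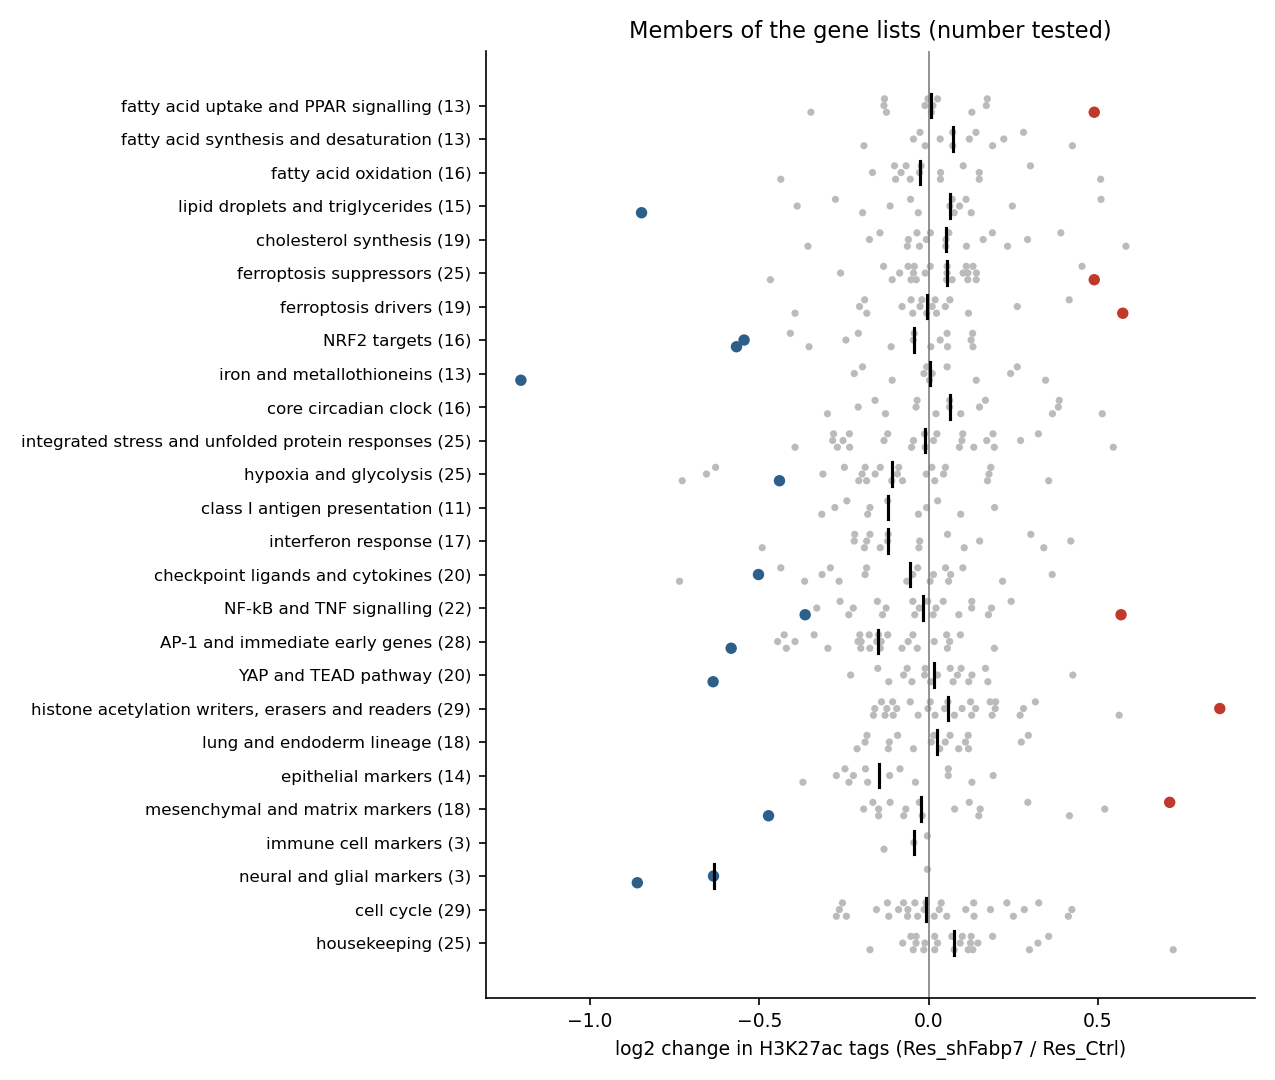
Log2 change (Res_shFabp7 over Res_Ctrl) of each tested gene, 1 row per gene list, with the list median and calls coloured by direction. List medians run between -0.15 (AP-1 and immediate early genes) and 0.08 (housekeeping), beside 0.03 over all genes, except -0.64 for the neural and glial list, where 2 of its 3 tested genes are called lower.

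Peak presence was read with care for the larger lists of the knockdown. Of 29992 merged regions, 1184 were called in all 3 Res_shFabp7 libraries and no Res_Ctrl library (3.95%, gained), and 28 in no Res_shFabp7 library and all 3 Res_Ctrl libraries (0.0934%, lost). With each list cut to its 19965 best peaks, the size of the shortest, these counts were 427 and 221, an imbalance of smaller size. Of the gained regions 218, and of the lost 18, were also gained or lost with equal lists. Both kinds were mostly distal, 82.7% of the gained and 75% of the lost, against 48.4% of the regions in all 6 lists. Gained regions were small, with a median of 96.7 tags. Leaving out 1 library gave 1238 to 3482 gained regions and 29 to 72 lost ones, with the largest shifts without Res_shFabp7 replicate 1 (3482 gained), Res_Ctrl replicate 3 (2040 gained), Res_shFabp7 replicate 3 (64 lost), Res_Ctrl replicate 1 (49 lost) and Res_Ctrl replicate 2 (72 lost). The rule is easier to meet with fewer libraries, so a rise in these counts does not show dependence on a library.

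**Figure D5:**
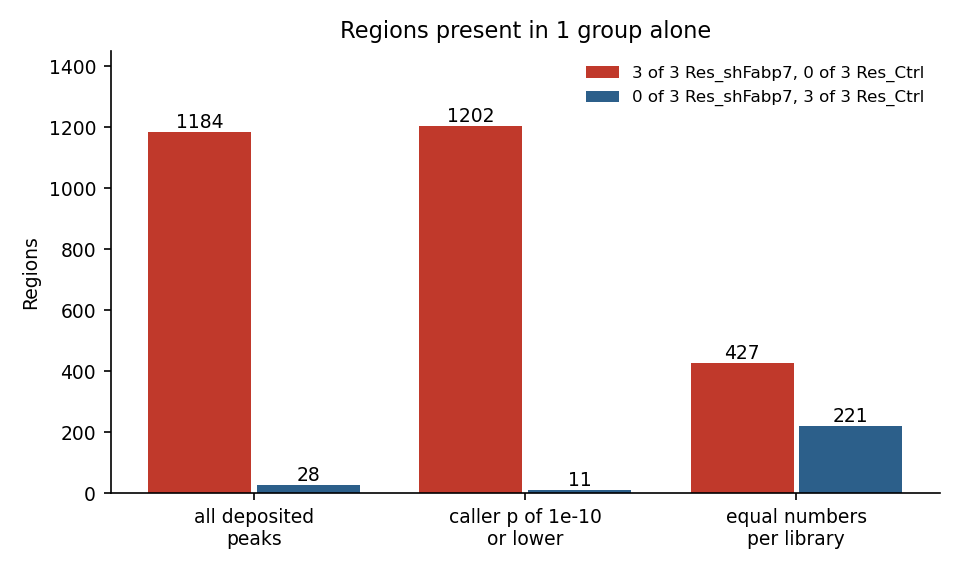
Numbers of merged regions gained or lost, with all deposited peaks, with caller p of 1e-10 or less, and with equal numbers per list. Gained regions hold a peak in every Res_shFabp7 list and no Res_Ctrl list, and lost regions the reverse. With all peaks 1184 regions are gained and 28 lost, with the stricter p 1202 and 11, and with equal numbers 427 and 221.

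The strongest gained regions at gene ends that held with equal lists lay at Zcchc8, Il2rb, Ifit3b, Tnni3k, Tbc1d7 and Fam83f. Zcchc8, part of the complex that targets RNA to the nuclear exosome, had 176, 288 and 391 tags in Res_shFabp7 at its far end, chr5:123692539-123697713. Il2rb, the shared beta chain of the interleukin 2 and 15 receptors, had 159, 207 and 408 tags in Res_shFabp7 at chr15:78478745-78484149. Ifit3b, an interferon-induced gene, had 217, 190 and 357 tags in Res_shFabp7 over its start, chr19:34604839-34609080. None of these had a peak in any Res_Ctrl library. Ifit3b had no peak in the Resistant or Sensitive lists either, Il2rb had one in 3 of 3 Sensitive and 0 of 3 Resistant lists, and Zcchc8 in 3 of 3 Resistant lists. Over all 1184 gained regions, 756 had no peak in any list of the Resistant line and 173 had one in all 3.

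Lost regions at gene ends that held with equal lists numbered 4. Psrc1, a microtubule-binding protein of the spindle, had 176, 70 and 77 tags in Res_Ctrl over its start, chr3:108381618-108384698. Bmp7, a secreted morphogen of the TGF-beta family, had 133, 64 and 73 tags in Res_Ctrl at chr2:172937836-172940920. Cpne5, a calcium-dependent membrane-binding protein, had 71, 46 and 106 tags in Res_Ctrl at its far end, chr17:29155745-29157704. Ampd3, an AMP deaminase, had 80, 53 and 70 tags in Res_Ctrl over its start, chr7:110768117-110769572. Psrc1, Cpne5 and Ampd3 had a peak in 3 of 3 Resistant lists, and Bmp7 in no Resistant or Sensitive list. Over all 28 lost regions, 15 had no peak in any list of the Resistant line and 9 had one in all 3. With equal lists, 37.6% of the 221 lost regions lay on chromosomes 3, 4 and 8 and none on X, while 11.7% of the 427 gained lay on those 3 and 24 on X. Those 3 chromosomes held 18.4% of all regions.

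Letters in the 250 bases before the starts were counted under the called regions, on both strands and with no test. Such starts numbered 128 under lower, 80 under higher and 10570 under uncalled regions, out of 32851 in the table, and starts of 1 gene can overlap. The TEAD motif GGAATG was in 19.5% of starts under lower regions, 10.0% under higher and 10.1% under uncalled ones (12.6% of all). The AP-1 motif TGACTCA was in 8 of the 128 starts under lower regions (6.25%), 1 of the 80 under higher ones and 3.34% under uncalled ones (4.46% of all). The short CRE core TGACG was in 9.38%, 21.3% and 29.1% (17.8% of all), the ETS motif CCGGAAG in 5.47%, 7.5% and 15.3% (6.91% of all), and GC boxes in 49.2%, 46.3% and 60.9% (32.7% of all). The TATA box TATAAA was in 11.7%, 8.75% and 5.64% (12.4% of all). The loose metal response core TGCNCNC was in 50.8%, 52.5% and 53.6% (44.4% of all), so that holding a match did not set Mt2 apart. The antioxidant core TGACNNNGC, which can overlap TGACTCA, was in 14.8%, 13.8% and 12.2% (10.2% of all). CCAAT was in 27.3%, 33.8% and 34.2% (33.8% of all) and the E-box CACGTG in 3.13%, 6.25% and 8.55% (6.02% of all).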

How the data were processed

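The members, gene lists and rules were chosen with earlier results of these data known. Reads of 50 bases were aligned to mm10 with Bowtie 1.1.2 and peaks called with MACS 1.4.2, per the submitters' processing notes, which name the tools without their settings. The authors deposited 1 peak list per library, with tag counts per peak (whole numbers, not scaled), a caller score from the negative log10 of p that is at least 50 (p of 1e-05), and a fold enrichment ratio. Tags exist only inside called intervals, so a region's count depends on where each library was called. The use of inputs and the removal of duplicates are not given in the sources used here.

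Peaks of the 6 lists that overlapped by at least 1 base were merged in Python 3.11.15, and tags were summed per region. Regions called in all 6 lists were tested with edgeR 4.0.16 in R 4.3.3 (quasi-likelihood, TMM scaling, Benjamini-Hochberg adjusted p under 0.05 over all tested regions). DESeq2 1.42.0 was an alternative. A gene took the region with the highest mean CPM within 1 kb of either annotated end (RefSeq table of GRCm38.p6, 21631 protein-coding genes). Of the tested regions 1913 lay at the ends of 2 or more genes. The change per called base divides tags by called length. Same-numbered H3K27ac libraries of the groups deviated together (correlations of 0.358, 0.128 and 0.233), each over the 0.1 set for pairing. Res_shFabp7 replicate 2 correlated at 0.154 with Res_Ctrl replicate 3, however. The same-numbered H3K9ac libraries did not reach 0.1 (0.027, 0.024 and -0.052), so the pairing is uncertain. The fit without the block is the main one and the fit with it an alternative. No 2 lists shared an identical interval.

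The naming rule took up to 12 falls and 12 rises at gene ends and 4 distal ones each way that passed, separated the groups and changed by at least 0.5 (log2) per called base. No gene-end rise met it, so the 12 largest rises in tags were taken after their values were seen. It also took the 6 gained or lost gene-end regions with most tags, and up to 4 called members per list. Tested on simulated counts over 16235 regions of this comparison, the fit recovered 40% of 100 regions changed 1.5-fold and 82% of 100 changed 2-fold, with 10 false calls. A few items are not reported here.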

Additional observations from a re-analysis of the deposited data

How the results depend on the processing

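Of the 42 named regions tested, 18 passed with each library left out, 42 kept their call with the replicate block and with DESeq2, and 32 with chromosome medians taken out, which ended among others the calls of Acsl3 (adjusted p = 0.0764), Pebp1 (0.105) and Ncoa1 (0.0558). Tnfaip3 lost its call in 5 of the other settings and Pebp1 in 4, leave-one-out aside. Direction was kept in all of them except per called base, where 23 passed and 8 reversed: Efnb1 (-0.018), Flt1 (-0.15), D630003M21Rik (-0.062), Phyh (-0.077), Gpr155 (-0.0041), Acsl3 (-0.055), Vcam1 (-0.35) and Ncoa1 (-0.036). The counts of tested regions were 397 higher and 914 lower per called base, 502 and 939 with the replicate block, 376 higher with DESeq2, 258 lower with caller p of 1e-10 or less, 250 lower with chromosome medians taken out, and 89 and 174 in regions of stable called length. The counts of genes were 305 higher and 169 lower per called base, 206 and 292 with the block, 136 higher with DESeq2, 50 and 70 with chromosome medians taken out, and 53 and 71 at starts alone. Higher genes outnumbered lower ones per called base, in stable lengths (78 and 71) and with the loess offset (101 and 97), against 72 and 112 in the main comparison. H3K9ac counts with chromosome medians taken out were 151 higher and 385 lower, and its block gave 258 and 498. The block ended no named call and added 24 list members to the 17 called. Gained regions numbered 427 with equal lists, and lost regions 221 with equal lists and 11 with the stricter caller p. The share of peaks at gene ends, 4.9 percentage points lower in Res_shFabp7 with all peaks, was 0.92 points higher with equal lists. The cause was not tested, beyond the fewer regions that the stricter settings leave.

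Leaving out 1 library gave 45 to 281 higher and 120 to 561 lower regions, and 13 to 125 higher and 31 to 119 lower genes. In H3K9ac it gave 82 to 506 higher and 227 to 607 lower regions. Gained regions numbered 1238 to 3482 and lost ones 29 to 72, by a rule that is easier to meet with fewer libraries. Res_shFabp7 libraries had 3771 to 6672.5 more peaks, and the gene-end share differed by -6.82 to -3.59 points. Small regions limit what can be seen: Ddah1 had 62 to 81 tags per library in Res_shFabp7. The 1.5-fold changes, of which 40% were recovered, were simulated in regions of any size and without an effect of called length. The share recovered in small regions was not looked at.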

Other observations

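The falls at Dhrs3 led to a look at other genes of retinoid handling, a list of 26 drawn up after the values had been seen. Retinoic acid is made from retinol by retinol and retinaldehyde dehydrogenases, and Dhrs3 runs the first of these steps backwards. Of the 26, 13 had no peak at either end in any library, including Stra6, the retinol uptake receptor, the Cyp26 enzymes that clear retinoic acid, and the receptors Rara and Rarb. Apart from Dhrs3, which prompted the list, 11 were tested and 1 was called, beside 1.91% of all genes. This was Rdh10, which oxidises retinol in the opposite direction to Dhrs3, and which was higher (0.37 ± 0.08, log2, SE, edgeR adjusted p = 0.0284), with a change of -0.07 per called base and 0.10 in H3K9ac. Rbp4, the plasma retinol carrier, did not pass (0.34, adjusted p = 0.0756). A distal region whose nearest gene was Stra6, chr9:58135020-58137976, was called in no Res_shFabp7 library and in all 3 Res_Ctrl libraries, with 164, 173 and 162 tags. It had a peak in 0 of 3 lists of the unmodified Resistant line and in 3 of 3 of the Sensitive line.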
